A study of Mus musculus with 22 samples.

Results

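Nav3, Fbp2, Adcy10, Adcy4, Ltb4r1, Dok6, Nfam1, Anxa8, Ttll6 and Dnase1l3 are 10 protein-coding genes of 43672 genes in a count table of mouse embryonic stem cells (ESCs). They were picked for very large increases from a near-zero level in the 4OHT libraries of Ythdc1 conditional knockout (cKO) cells. The rule names no threshold and does not say which 4OHT libraries it used. Every 4OHT against DMSO value of these 10 genes below is thus a description without a test. The table also holds 1077 repeat families, which gives 44749 features in all. 4OHT is 4-hydroxytamoxifen, a ligand commonly used to switch on an inducible Cre recombinase, and DMSO is the solvent control.

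Male ESCs were grown without feeder cells in serum with LIF, and total RNA depleted of ribosomal RNA was sequenced in 22 libraries. In the Ythdc1 set, 4 libraries of Ythdc1 cKO cells had 4OHT and 4 had DMSO. The titles put these cells in a pair of ESC lines, but the columns of the table carry no line. The fits of this set thus hold no term for the line. Its SDs, SEs and p-values treat the 4 libraries per treatment as independent. In the Dux set, Ythdc1 cKO cells that were also Dux-KO had 4OHT (2 libraries) or DMSO (2), those that were Dux-Het had 4OHT (2) or DMSO (2), and those with no Dux label had 4OHT (1) or DMSO (1). The Mettl3 set has 2 libraries labelled Mettl3 KO and 2 Mettl3 WT, with no 4OHT in their labels. Every 4OHT library used here comes from Ythdc1 cKO cells, so the effect of 4OHT itself and that of Ythdc1 loss cannot be told apart. No label names the driver of the recombinase or the number of clones per genotype. Nothing in the labels says that replicates were separate cultures, and the spread behind each p-value may therefore be technical.

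Ythdc1 encodes a nuclear protein that reads N6-methyladenosine (m6A) on RNA, and Mettl3 encodes the catalytic subunit of the complex that writes m6A. In ESCs m6A and its readers are known to act on the decay of transcripts and on the silencing of retroelements. Dux encodes a transcription factor that switches on genes of the two-cell embryo, and it stands in the table as Duxf3. The 10 genes belong to different pathways, and most are known from differentiated tissue: Nav3 from neurons, Fbp2 from muscle, Nfam1 and Ltb4r1 from blood cells, Dnase1l3 from macrophages and dendritic cells, and Adcy10 from sperm.

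Total counts ran from 24.96 to 54.14 M per library, and CPM below is the count divided by the library's total in M, after 1 TMM scaling over all 22 libraries. Ythdc1 lay at 49.5 to 63.4 CPM in the 4OHT libraries and at 71.9 to 82.2 CPM in the DMSO libraries of the Ythdc1 set. In the Dux set the treatments overlapped at this gene, with 53.9 to 56.6 CPM under 4OHT and 48.4 to 68.7 CPM under DMSO in Dux-KO cells, and 52.5 to 65.7 CPM under 4OHT and 58.0 to 86.0 CPM under DMSO in Dux-Het cells. The labels do not say which part of Ythdc1 is deleted, and reads from the rest of the gene still count. Duxf3 had 6 counts over the Dux-KO 4OHT libraries and 116 over the Dux-Het 4OHT libraries. Mettl3 lay at 14.5 and 28.5 CPM in the libraries labelled Mettl3 KO and at 28.7 to 29.9 CPM in the WT libraries, so library 2 labelled Mettl3 KO lay within 1 CPM of WT at this gene. Pou5f1, the ESC factor also called Oct4, averaged 175 CPM under 4OHT and 203 CPM under DMSO in the Ythdc1 set. Of 8 ESC markers in that set, 5 were lower under 4OHT and none higher (edgeR adjusted p under 0.05), where 21.4% of all features were lower. Nanog, among those lower, averaged 99.9 CPM under 4OHT and 280.5 CPM under DMSO.

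**Figure D1:**
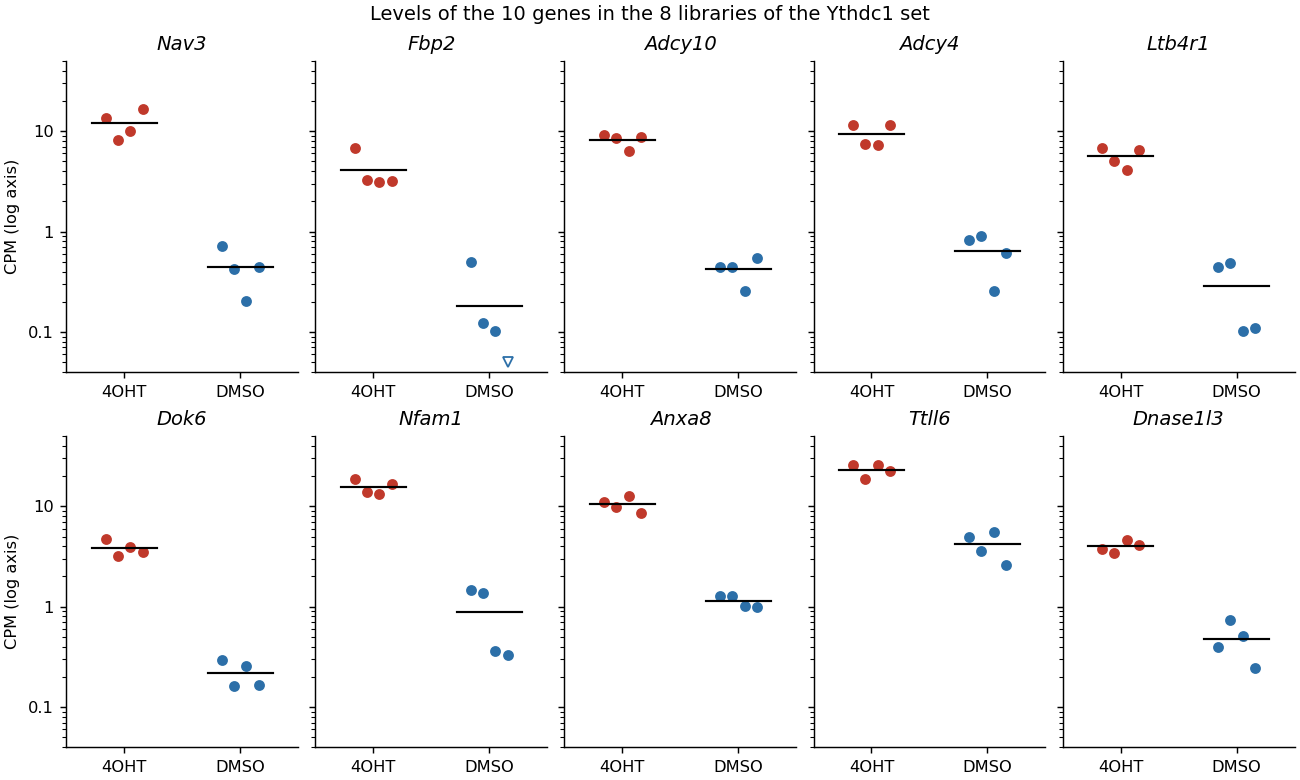
CPM on a log axis for each of the 10 genes in the 4 libraries with 4OHT (red, left) and the 4 with DMSO (blue, right) of the Ythdc1 set. Each point is a library, each bar a mean, and the open triangle marks Fbp2 at 0 counts in 1 DMSO library; the points of the 2 treatments do not overlap in any panel, and Ttll6 has the highest DMSO level.

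Adcy10 and Adcy4 make the second messenger cAMP: Adcy10 is the soluble adenylyl cyclase that bicarbonate stimulates, and Adcy4 is a membrane-bound cyclase. Adcy10 had 444, 396, 258 and 277 counts under 4OHT and 18, 22, 10 and 20 counts under DMSO in the Ythdc1 set. In CPM it averaged 8.21 ± 1.30 under 4OHT and 0.425 ± 0.122 under DMSO (SD, n = 4 each), a log2 fold change of 4.30 (SE 0.216). Adcy4 had 552, 342, 296 and 372 counts under 4OHT and 33, 44, 10 and 22 counts under DMSO, or 9.45 ± 2.45 CPM and 0.643 ± 0.285 CPM, a log2 fold change of 3.89 (SE 0.273). Every 4OHT library of either gene lay above every DMSO library. In these bulk libraries, a change in the share of cells that express a gene and a change of its RNA per cell cannot be told apart. Ltb4r1, the high-affinity receptor for the lipid mediator leukotriene B4, had 323, 234, 166 and 210 counts under 4OHT and 18, 24, 4 and 4 counts under DMSO, a log2 fold change of 4.26 (SE 0.345). Its DMSO libraries fell into a higher and a lower pair, but none came near the 4OHT libraries.

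Adcy4 and Ltb4r1 lie next to each other on chromosome 14. In GENCODE vM21 on GRCm38 (mm10), Ltb4r1 runs from 55765962 to 55768494 on the plus strand and Adcy4 from 55769057 to 55784095 on the minus strand, so their 3′ ends face each other across 562 bases. Over the 22 libraries each was the profile most like the other among the 10 genes, with r = 0.976 in log2(CPM + 0.5); Adcy10 and Nfam1, on different chromosomes, also had r = 0.976. The libraries share treatment and scaling, and these values are descriptions. The 250 bases before each RefSeq start are printed here because these adjacent genes, both high under 4OHT, start at separate promoters. Both sequences are from RefSeq (GRCm38.p6), each 5′ to 3′ on the strand of its gene, Ltb4r1 from chr14:55765712-55765961 (plus strand) and Adcy4 from chr14:55784073-55784322 (minus strand).
Ltb4r1: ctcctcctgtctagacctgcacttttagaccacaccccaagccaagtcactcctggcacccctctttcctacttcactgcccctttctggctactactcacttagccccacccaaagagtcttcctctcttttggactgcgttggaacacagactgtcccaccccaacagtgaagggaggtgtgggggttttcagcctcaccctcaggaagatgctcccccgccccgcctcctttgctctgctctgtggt
Adcy4: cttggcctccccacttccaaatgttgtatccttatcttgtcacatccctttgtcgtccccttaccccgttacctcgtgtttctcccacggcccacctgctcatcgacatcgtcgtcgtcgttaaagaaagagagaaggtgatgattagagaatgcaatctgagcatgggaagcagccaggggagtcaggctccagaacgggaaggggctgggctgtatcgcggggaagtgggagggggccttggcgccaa
Neither of these windows holds TATAAA, TGATTNAAT (letters from the core that Dux binds) or a p53 consensus half-site on either strand. The window that was searched runs on to 50 bases after the start, and within it Adcy4 had 16 CpG and Ltb4r1 had 3, against a median of 7 (quartiles 3 and 20) over 32851 promoters. No match says only that these letters are not in this window.

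Nfam1 encodes an immune receptor with an activating ITAM motif, and Dok6 an adaptor docked to receptor tyrosine kinases such as Ret. Nfam1 had 898, 645, 548 and 535 counts under 4OHT and 60, 68, 14 and 12 counts under DMSO. It averaged 15.7 ± 2.47 CPM under 4OHT and 0.889 ± 0.630 CPM under DMSO, a log2 fold change of 4.14 (SE 0.309). As for Ltb4r1, DMSO libraries 1 and 2 were high and libraries 3 and 4 low. Dok6 had 225, 146, 160 and 111 counts under 4OHT and 12, 8, 10 and 6 counts under DMSO, a log2 fold change of 4.15 (SE 0.271). Per kilobase of exon Dok6 had the lowest mean of the 10 genes, at 0.276 CPM per kb under 4OHT and 0.0160 CPM per kb under DMSO.

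Fbp2 is the muscle form of fructose-1,6-bisphosphatase, an enzyme of gluconeogenesis, and Dnase1l3 is a secreted DNase. Fbp2 had 323, 149, 126 and 103 counts under 4OHT and 20, 6, 4 and 0 counts under DMSO, a log2 fold change of 4.51 (SE 0.505). The first 4OHT library stood at 6.73 CPM while the other three lay between 3.08 and 3.23 CPM, and the first DMSO library, at 0.494 CPM, was likewise the highest of its group. Without DMSO library 1 the log2 fold change was 5.66. Dnase1l3 had 181, 157, 190 and 131 counts under 4OHT and 16, 36, 20 and 9 counts under DMSO, or 3.98 ± 0.527 CPM and 0.472 ± 0.205 CPM, a log2 fold change of 3.08 (SE 0.269).

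Nav3, Ttll6 and Anxa8 act at the cytoskeleton or at membranes: Nav3 binds microtubule ends, Ttll6 adds glutamate chains to tubulin of cilia and flagella, and Anxa8 is an annexin that binds phospholipid when calcium is present. Nav3 had 647, 379, 409 and 527 counts under 4OHT and 29, 21, 8 and 16 counts under DMSO. Its log2 fold change of 4.78 (SE 0.283) was the highest of the 10 genes, at 12.1 ± 3.68 CPM under 4OHT and 0.447 ± 0.209 CPM under DMSO. Anxa8 had 527, 454, 518 and 274 counts under 4OHT and 52, 63, 40 and 36 counts under DMSO, a log2 fold change of 3.23 (SE 0.168). Ttll6 had 1233, 862, 1066 and 712 counts under 4OHT and 202, 176, 217 and 95 counts under DMSO, a log2 fold change of 2.51 (SE 0.183).

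The name "near-silent" does not describe Ttll6. It averaged 23.2 ± 3.45 CPM under 4OHT and 4.19 ± 1.34 CPM under DMSO, and its DMSO level per kilobase exceeded that of 45.7% of 20156 protein-coding genes. Anxa8 lay at 10.5 ± 1.74 CPM under 4OHT and 1.15 ± 0.159 CPM under DMSO. Its DMSO level per kilobase exceeded that of 40.2% of protein-coding genes, close to Ttll6. Of the other eight, the DMSO level per kilobase exceeded that of between 16.1% (Dok6) and 31.6% (Ltb4r1) of protein-coding genes. Under 4OHT the 10 genes spread between 32.2% (Dok6) and 74.5% (Ttll6) on the same scale, so that Ttll6, Anxa8 and Ltb4r1 had the highest levels per kilobase and Dok6, Dnase1l3 and Nav3 the lowest.

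All 10 genes passed the filter on low counts in the Ythdc1 set, and every 4OHT library lay above every DMSO library for each of them, as for 20.1% of the 24385 features tested. Over all features, 23.7% were called higher and 21.4% lower at an adjusted p of 0.05 (edgeR quasi-likelihood test, Benjamini-Hochberg). The 10 genes had a median log2 fold change of 4.14 (2.51 to 4.78), against 0.02 over all features, and ranked from 85 to 537 from the highest. Nothing is read from these shares, since the same contrast chose the genes. 339 features, 338 of them genes, had a mean DMSO level under 1 CPM and a fitted fold of at least 8, of 6336 tested below that level. 8 of the 10 genes were among them, and Anxa8 and Ttll6 were not. With the limit at 0.5 CPM the class held 319 features and 6 of the 10 genes, and Adcy4 and Nfam1 fell out as well.

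**Figure D2:**
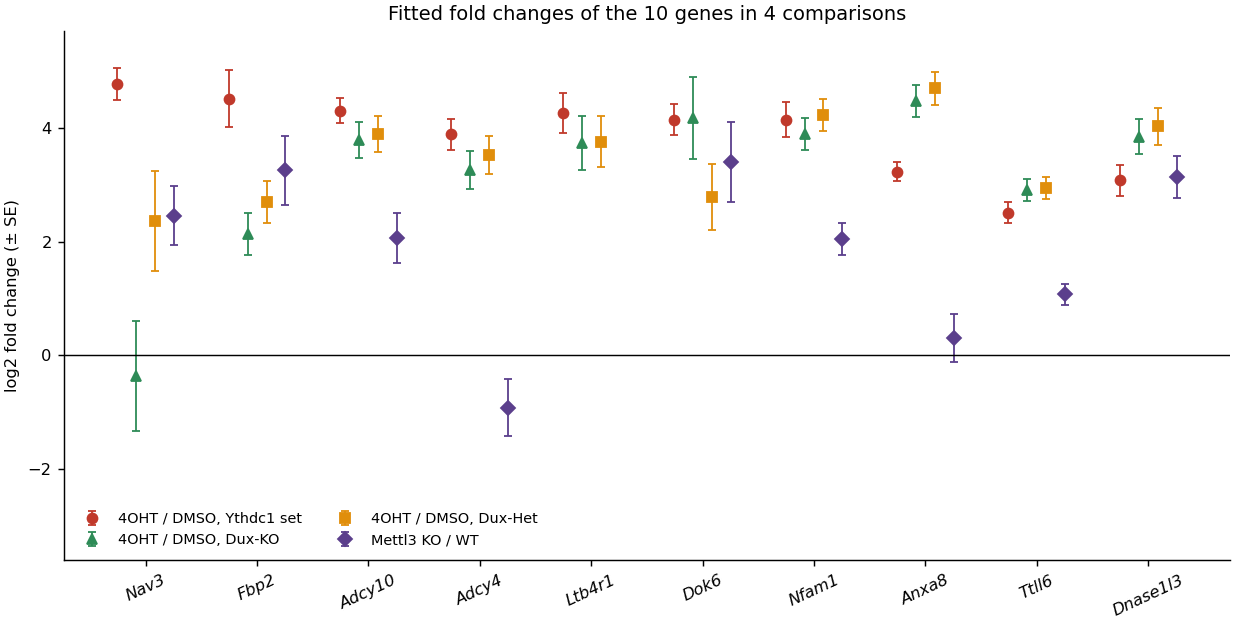
Log2 fold change (± SE) of each gene for 4OHT over DMSO in the Ythdc1 set (circles), in Dux-KO cells (triangles) and in Dux-Het cells (squares), and for the libraries labelled Mettl3 KO over WT (diamonds; none for Ltb4r1, which did not pass the filter). Nav3 in Dux-KO cells (-0.37) and Adcy4 in the Mettl3 set (-0.92) are the values below 0.

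In the Dux set, cells that were Dux-KO or Dux-Het also had 4OHT or DMSO. 9 of the 10 genes had every 4OHT library above every DMSO library in Dux-KO cells, and the same 9 did so in Dux-Het cells. Of the 29322 features tested, 33.5% separated in this way in Dux-KO cells and 27.8% in Dux-Het cells, where each group holds 2 libraries. Nav3 overlapped in both. By the test, 5.5% of features were called higher under 4OHT in Dux-KO cells and 4.99% in Dux-Het cells. The median log2 fold change of the 10 genes was 3.76 in Dux-KO cells, against 0.05 over all features, and 3.64 in Dux-Het cells, against 0.04. Anxa8 had 1412 and 1662 counts under 4OHT and 28 and 78 counts under DMSO in Dux-KO cells. In Dux-Het cells it had 1213 and 1078 counts under 4OHT and 46 and 34 counts under DMSO. Its log2 fold changes, 4.47 (SE 0.282) in Dux-KO cells and 4.69 (SE 0.288) in Dux-Het cells, were the highest of the 10 genes in either genotype.

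Adcy10 had 333 and 420 counts under 4OHT and 16 and 24 counts under DMSO in Dux-KO cells, and 285 and 543 counts under 4OHT and 23 and 26 counts under DMSO in Dux-Het cells. Nfam1 had 824 and 885 counts under 4OHT and 26 and 61 counts under DMSO in Dux-KO cells, and 765 and 826 counts under 4OHT and 48 and 28 counts under DMSO in Dux-Het cells. The fitted log2 fold changes in Dux-KO cells were 3.78 for Adcy10 and 3.90 for Nfam1, and those in Dux-Het cells were 3.89 and 4.23. The 4OHT levels of these genes in the Dux set, between 6.50 and 10.5 CPM for Adcy10 and between 15.9 and 17.4 CPM for Nfam1, lay close to the ranges of the Ythdc1 set, 6.31 to 9.25 CPM and 13.4 to 18.7 CPM.

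Nav3 was the exception. Under 4OHT it had 45 and 23 counts in Dux-KO cells, against 30 and 34 counts under DMSO, so the treatments overlapped. In Dux-Het cells the 4OHT libraries had 41 and 627 counts and the DMSO libraries 27 and 82. The fitted log2 fold change in Dux-Het cells, 2.37 (SE 0.881), rested on the second 4OHT library and was -0.45 without it. In the pair with no Dux label Nav3 had 82 counts under 4OHT and 14 under DMSO, a CPM ratio of 5.06 (95% exact interval 2.85 to 9.67, counting error only). One of the 5 4OHT libraries of the Dux set, at 12.1 CPM, thus lay in the range of the Ythdc1 set (8.23 to 16.5 CPM), and the other four lay between 0.415 and 1.83 CPM. The Dux-Het library with 627 counts was also the highest of the Dux set for Adcy10 (10.5 CPM), Adcy4 (7.55 CPM), Ltb4r1 (6.01 CPM), Dok6 (4.25 CPM) and Fbp2 (4.12 CPM). For Nfam1, Anxa8, Ttll6 and Dnase1l3 it lay below the other Dux-Het 4OHT library in CPM. What sets that library apart was not tested.

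**Figure D3:**
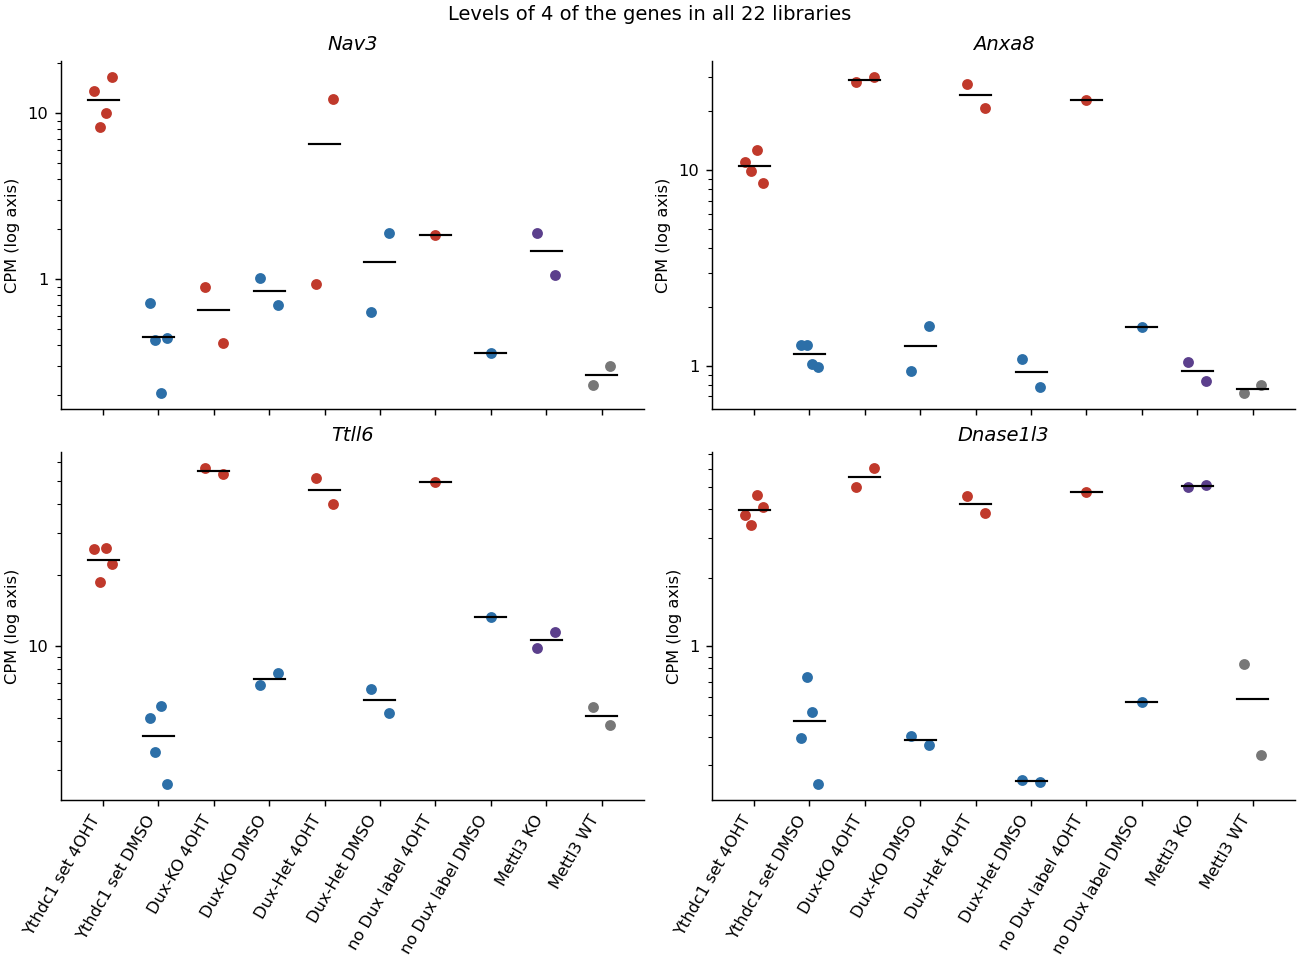
CPM on a log axis for Nav3, Anxa8, Ttll6 and Dnase1l3 in all 22 libraries, by group, with each 4OHT group (red) left of its DMSO group (blue) and the libraries labelled Mettl3 KO (purple) left of WT (grey); bars are means. A single Dux-Het 4OHT library carries the Nav3 level of the Ythdc1 set, Anxa8 and Ttll6 are higher under 4OHT in the Dux set than in the Ythdc1 set, and Dnase1l3 in the libraries labelled Mettl3 KO reaches its 4OHT level.

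Whether the levels under 4OHT depended on Dux was tested as Dux-KO against Dux-Het. None of the 10 genes was called, where 0.276% of features (81) were. At an unadjusted p under 0.05 the test passed 873 features and 1 of the 10 genes, Nav3, and DESeq2 called 107 features and none of the 10 genes. Nav3 had 0.895 and 0.415 CPM in Dux-KO 4OHT libraries and 0.934 and 12.1 CPM in Dux-Het 4OHT libraries, a log2 fold change of -3.32 (SE 0.927; edgeR adjusted p = 0.628). Without a filter on low counts its adjusted p was 5.68e-16, without Dux-Het 4OHT replicate 1 it was 0.00735, and without Dux-Het 4OHT replicate 2 the log2 fold change was -0.51, with an adjusted p of 1. For the other nine the log2 fold changes lay between -0.71 (Dok6, SE 0.510) and 0.40 (Dnase1l3, SE 0.249), each with an adjusted p of 1. If the genes were picked on one Dux genotype, this comparison is not independent of that choice.

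In the same libraries 16 of 18 two-cell entries tested, the Zscan4 genes and MERVL among them, were called lower in Dux-KO than in Dux-Het cells under 4OHT, with a median log2 fold change of -9.17. Under DMSO, Dux-KO against Dux-Het called 0.0341% of features (10), 6 of the 18 two-cell entries and none of the 10 genes. Unadjusted, 757 features and 1 of the 10 genes, Dok6, passed; DESeq2 called 17 features and none of the 10. Dok6 had 2 and 6 counts in Dux-KO DMSO libraries and 7 and 31 counts in Dux-Het DMSO libraries, a log2 fold change of -2.10 (SE 0.797; edgeR adjusted p = 1). Without Dux-Het DMSO library 2 that value was -0.69, and over all single libraries left out its lowest was -2.79. The 4OHT effect in Dux-KO cells minus that in Dux-Het cells was called for 0% of features (0 at adjusted p, 481 unadjusted, 2 by DESeq2). None of the 10 genes passed it adjusted or unadjusted. The difference was -2.74 (SE 1.30) for Nav3 and 1.39 (SE 0.954) for Dok6 on the log2 scale, and between -0.56 and -0.02 for the rest; without a filter on low counts Nav3 was called, with an adjusted p of 0.000743. The standard errors, from 0.256 (Ttll6) to 1.30 (Nav3), limit what these pairs of libraries could show.

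For cells without a Dux label there is a single library per treatment and thus no replicate check. Ltb4r1 had 94 counts under 4OHT and 1 under DMSO, a ratio of 81.3 in CPM (95% exact interval 14.2 to 3243). Dok6 had 119 and 2 counts, a ratio of 51.4 (13.9 to 430), and Adcy10 had 302 and 11, a ratio of 23.7 (13.1 to 48.1). The other genes had ratios from 2.37 (Fbp2, 1.72 to 3.30) to 14.5 (Anxa8, 11.2 to 19.1). Fbp2, with 145 counts under 4OHT and 53 under DMSO, and Ttll6, with 2219 and 513, had their highest DMSO level of all libraries there. The intervals cover counting error only.

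Anxa8 and Ttll6 separated the sets. Under 4OHT, Anxa8 lay between 20.8 and 30.0 CPM in the 5 libraries of the Dux set and between 8.57 and 12.7 CPM in the Ythdc1 set, and Ttll6 lay between 40.02 and 56.7 CPM in the Dux set and between 18.7 and 26.1 CPM in the Ythdc1 set. Adcy4 lay between 2.99 and 7.55 CPM in the Dux set and between 7.24 and 11.6 CPM in the Ythdc1 set, ranges that overlap. The difference between the sets was not tested. Over the 22 libraries Anxa8 and Ttll6 were each other's most similar profile among the 10 genes (r = 0.942 in log2(CPM + 0.5)), and Nav3 and Ttll6 the least alike pair (r = 0.473). Against the mean of the other nine, r ran from 0.70 for Nav3 to 0.986 for Adcy10.

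The rule does not choose on the Mettl3 set, but the genes were chosen with earlier results of these data known. The comparison may thus not be independent of that choice. 7 of the 10 genes were called higher in the libraries labelled Mettl3 KO than in WT, where 16.4% of the 23977 features tested were called higher and 14.9% lower (edgeR, adjusted p of 0.05). 5 of the 7 (Nav3, Fbp2, Adcy10, Dok6 and Dnase1l3) passed the filter on low counts only through the libraries labelled Mettl3 KO, since fewer than 2 WT libraries reached its limit, so the count of 7 is tied to the filter. Without a filter all 10 genes were tested and the same 7 were called higher, where 7.19% of 38771 features were. That fit adds features with few counts, so its share is not comparable with the 16.4% above. The 5 then had edgeR adjusted p-values of 0.0210 (Nav3), 0.0112 (Fbp2), 0.0215 (Adcy10), 0.0182 (Dok6) and 0.00455 (Dnase1l3). The smaller adjusted p-values printed below for these 5 come from the filtered fit and share its limit. Dnase1l3 had 143 and 146 counts in the libraries labelled Mettl3 KO and 22 and 10 counts in WT, a log2 fold change of 3.13 (SE 0.370; adjusted p = 0.000315). Its 5.07 ± 0.0672 CPM there (SD, n = 2) lay beside 3.98 ± 0.527 CPM (n = 4) in the 4OHT libraries of the Ythdc1 set. Nfam1 had 98 and 107 counts and WT 22 and 27, a log2 fold change of 2.04 (SE 0.286; adjusted p = 0.000763).

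Ttll6 had 280 and 328 counts in the libraries labelled Mettl3 KO and 145 and 139 counts in WT, a log2 fold change of 1.07 (SE 0.183; adjusted p = 0.00216). Fbp2 had 28 and 32 counts against 2 and 4 in WT (3.26, SE 0.607; adjusted p = 0.00347), and Dok6 had 18 and 27 against 2 and 2 (3.39, SE 0.702; adjusted p = 0.00583). Nav3 had 54 and 30 counts against 6 and 9 (2.45, SE 0.518; adjusted p = 0.00643), and Adcy10 had 45 and 61 against 8 and 17 (2.07, SE 0.438; adjusted p = 0.00656). Both libraries labelled Mettl3 KO lay above both WT libraries in these 7 genes, as in 33.4% of all features tested; for genes already called higher this separation is close to fixed. Library 2 labelled Mettl3 KO is the one with the WT-like Mettl3 level. Without that library the Nav3 log2 fold change was 2.80. Calls are not read from that fit, since its spread rests on the WT pair alone.

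Adcy4 and Anxa8 were not called. Adcy4 had 10 and 14 counts in the libraries labelled Mettl3 KO and 21 and 24 counts in WT, so both lay below WT (log2 fold change -0.92, SE 0.498; adjusted p = 0.197). Anxa8 had 30 and 24 counts against 19 and 24 in WT (0.31, SE 0.421; adjusted p = 0.623). Ltb4r1, with 10 and 11 counts against 2 and 10 in WT, did not pass the filter on low counts; without a filter its log2 fold change was 0.80 (SE 0.799; adjusted p = 0.555). Leaving out a WT library leaves the spread to the pair labelled Mettl3 KO alone, so calls are not read from those fits. The Nav3 log2 fold change was 2.27 without WT replicate 1 and 2.65 without WT replicate 2. Whether the Mettl3 difference and the 4OHT difference of a gene differ from each other was not tested.

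Marker lists also moved in the Mettl3 set, and their part in these results was not tested. Among all features of that set, 16.4% were called higher and 14.9% lower. All 16 two-cell entries tested rose, with sums of 974 to 1071 CPM in the libraries labelled Mettl3 KO and 441 to 461 CPM in WT. Of 8 neuronal markers 3 fell and none rose, at 60.05 to 80.6 CPM in the libraries labelled Mettl3 KO and 159.7 to 166.8 CPM in WT. ESC markers summed to 1342 to 1364 CPM in the libraries labelled Mettl3 KO and 1620 to 1659 CPM in WT, with 3 of 8 lower and 2 higher. Of 6 tested fibroblast markers 1 fell, at 17.8 to 35.6 CPM in the libraries labelled Mettl3 KO and 41.6 to 45.01 CPM in WT. Among 4 muscle markers 2 fell and 1 rose, at 19.6 to 25.9 CPM in the libraries labelled Mettl3 KO and 40.1 to 41.4 CPM in WT. Of 5 tested endothelial markers 1 rose and 2 fell, at 23.0 to 29.6 CPM in the libraries labelled Mettl3 KO and 13.6 to 17.6 CPM in WT. Among 8 blood markers 2 rose and 1 fell, at 30.7 to 34.2 CPM in the libraries labelled Mettl3 KO and 20.8 to 23.8 CPM in WT. Of 2 spermatid markers 1 fell, at 0.808 to 0.876 CPM in the libraries labelled Mettl3 KO and 1.22 to 1.60 CPM in WT. Ythdc1 itself lay at 136 to 154 CPM in the libraries labelled Mettl3 KO and at 80.8 to 83.5 CPM in WT.

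Sequence of the promoters was at hand for 7 of the 10 genes, in 9 windows of 300 bases, 3 of them for Nfam1; none was matched for Nav3, Dok6 and Dnase1l3. GC content ran from 49.3% to 61.0% in these windows, around the median of 52.7% over all promoters, and the median CpG count was 5 (2 to 16), against 7. TATAAA occurred in the windows of Ttll6 and of 1 Nfam1 start, where 13.6% of all promoters hold it. A p53 consensus half-site occurred in those of Ttll6 and Fbp2, where 8.36% of all promoters hold one, and TGATTNAAT in none, where 0.718% do. Both strands were searched. The 2 promoters with a half-site are printed for the 250 bases before the start, from RefSeq (GRCm38.p6) and 5′ to 3′ on the strand of the gene, Ttll6 from chr11:96133536-96133785 (plus strand) and Fbp2 from chr13:62858401-62858650 (minus strand).
Ttll6: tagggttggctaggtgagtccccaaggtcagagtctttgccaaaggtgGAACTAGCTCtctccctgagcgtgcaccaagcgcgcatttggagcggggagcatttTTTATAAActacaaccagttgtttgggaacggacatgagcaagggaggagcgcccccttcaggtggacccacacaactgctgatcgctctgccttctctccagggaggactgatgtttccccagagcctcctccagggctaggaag
Fbp2: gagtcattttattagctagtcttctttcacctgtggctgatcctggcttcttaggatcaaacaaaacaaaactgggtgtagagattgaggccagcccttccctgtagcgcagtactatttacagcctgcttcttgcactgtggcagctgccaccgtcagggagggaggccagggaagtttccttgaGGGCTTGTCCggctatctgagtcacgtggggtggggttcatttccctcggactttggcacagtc
Capitals mark the half-site, which starts 202 bases before the start of Ttll6 and 64 bases before that of Fbp2, and in Ttll6 also the TATAAA, 144 bases before the start, with an overlapping match on the opposite strand. Matches of letters are a description and show no binding.

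**Figure D4:**
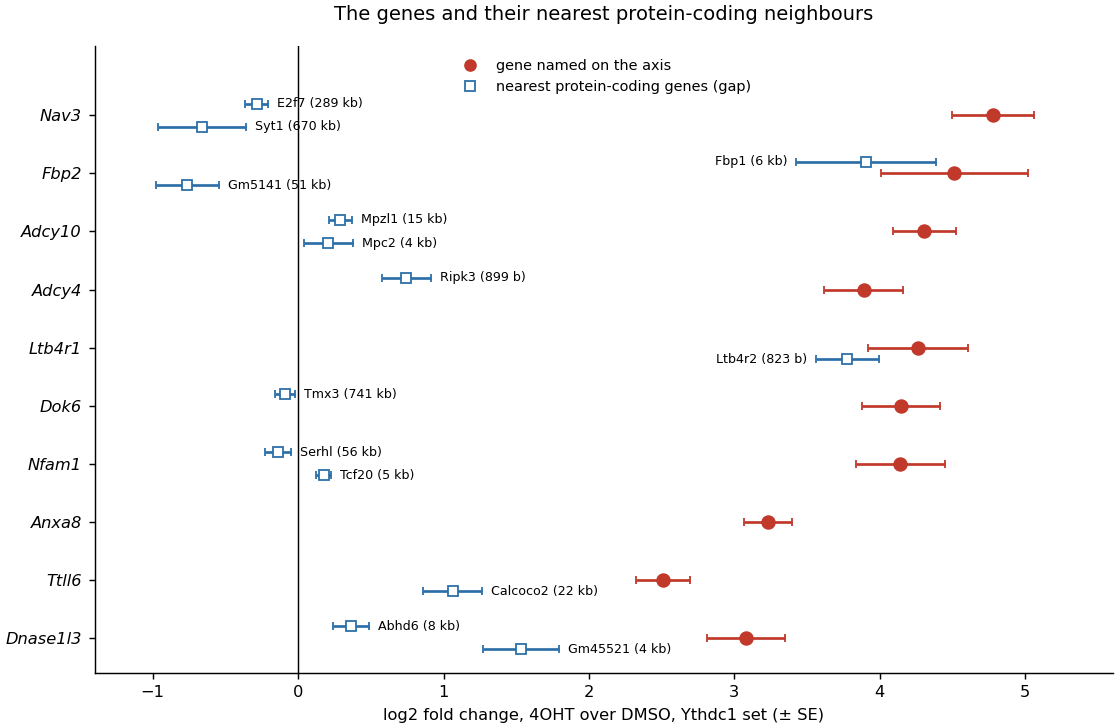
Log2 fold change (± SE) for 4OHT over DMSO in the Ythdc1 set of each of the 10 genes (red circles) and of its nearest protein-coding gene on either side (open blue squares, with the gap in bases or kb). Only neighbours that passed the filter are drawn; Ltb4r2 (3.78) and Fbp1 (3.90) lie among the 10 genes and the other neighbours between -0.76 and 1.53.

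The rule that chose the 10 genes does not name their neighbours on the chromosome. Apart from Adcy4 and Ltb4r1 themselves, 18 genes were the nearest protein-coding gene on one side, and 14 of them passed the filter. Of these, 8 rose and 2 fell under 4OHT in the Ythdc1 set, with a median log2 fold change of 0.25. Over all features tested there, 23.7% were called higher and 21.4% lower. Ltb4r2, the low-affinity receptor for leukotriene B4, ends 823 bases before the start of Ltb4r1. It averaged 26.0 ± 5.21 CPM under 4OHT and 1.94 ± 0.793 CPM under DMSO, a log2 fold change of 3.78 (SE 0.217; edgeR adjusted p = 2.04e-09). Ripk3, a kinase of necroptosis that lies 899 bases from Adcy4 on the other side, rose by 0.74 (SE 0.168; adjusted p = 0.00181). Ltb4r2, Ltb4r1 and Adcy4 thus form a run of 3 adjacent genes, with log2 fold changes of 3.78, 4.26 and 3.89, beside Ripk3 with a smaller one. In the Mettl3 set Ltb4r2 had a log2 fold change of 0.63 that did not pass (adjusted p = 0.234).

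Fbp1, the liver form of fructose-1,6-bisphosphatase, lies 6.33 kb from Fbp2 on the same strand. It averaged 2.18 ± 1.19 CPM under 4OHT and 0.152 ± 0.0867 CPM under DMSO, a log2 fold change of 3.90 (SE 0.481; edgeR adjusted p = 6.34e-06). Reads may be split between similar exons of the pair, and no label says how reads with several matches were counted. Gm45521, 3.90 kb from Dnase1l3, rose by 1.53 (SE 0.261; adjusted p = 0.000159), and Calcoco2, 21.8 kb from Ttll6, rose by 1.06 (SE 0.200; adjusted p = 0.000393). E2f7, the nearest gene on one side of Nav3, fell by 0.28 (adjusted p = 0.00761), and Syt1 on the other side did not pass, at -0.66 (adjusted p = 0.0868). Genes that overlap Nav3, Adcy10, Dok6 or Anxa8 in the annotation had at most 27 counts over the 4 4OHT libraries, against 642 or more for the genes themselves. No label says whether strand was used in counting.

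**Figure D5:**
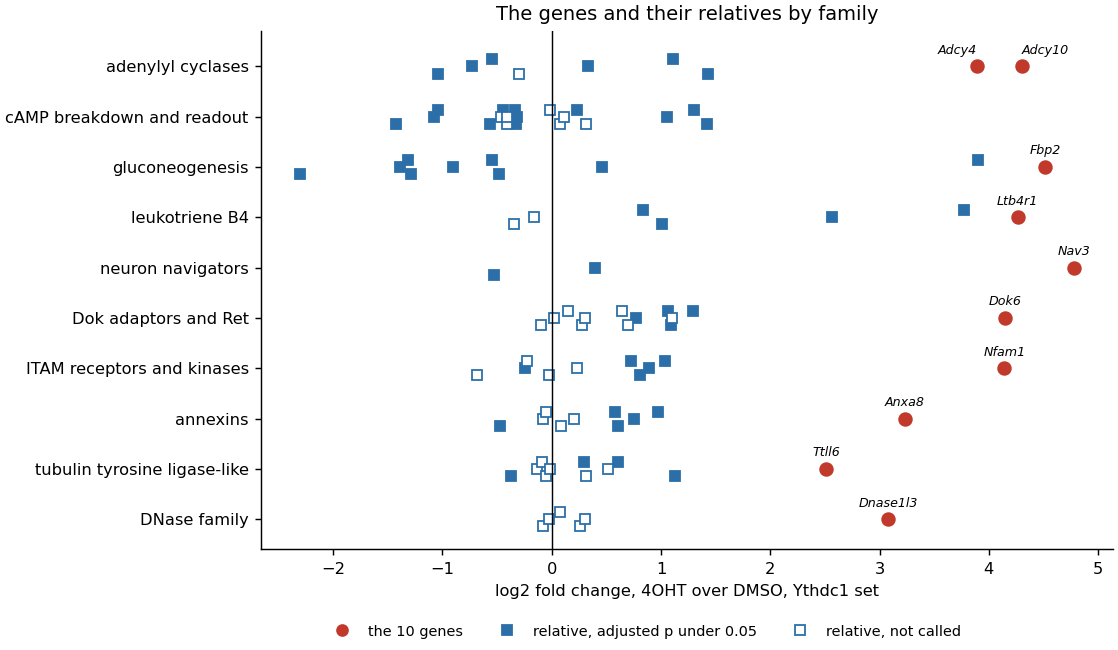
Log2 fold change for 4OHT over DMSO in the Ythdc1 set of the 10 genes (red circles) and of their relatives by family (blue squares, filled where the adjusted p is under 0.05). Fbp1 (3.90), Ltb4r2 (3.78) and Alox5 (2.57) stand nearest to the 10 genes, and all other relatives tested lie between -2.30 and 1.43.

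Relatives of the 10 genes were taken from 10 family lists with 106 genes. Of the 88 that passed the filter, 29 rose and 22 fell under 4OHT in the Ythdc1 set, with a median log2 fold change of 0.08. Only Fbp1 and Ltb4r2, both also neighbours, reached a fold of 8. Among 7 adenylyl cyclases tested beside Adcy10 and Adcy4, 3 rose and 3 fell. Adcy2 rose by 1.43 (SE 0.173; edgeR adjusted p = 5.44e-06), Adcy5 rose by 1.11 (SE 0.238; adjusted p = 0.00112) and Adcy3 fell by 1.04 (SE 0.0990; adjusted p = 4.39e-07). Of 19 tested genes that break down or read cAMP, 4 rose and 8 fell. Pde3b, a phosphodiesterase, fell by 1.42 (adjusted p = 7.01e-08), Pde3a rose by 1.42 (adjusted p = 0.00109) and Rapgef4, a cAMP-activated exchange factor, rose by 1.30 (adjusted p = 0.0328).

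In the leukotriene B4 list, which also holds receptors for cysteinyl leukotrienes, 4 of 6 tested genes rose and none fell. The 4 include the cysteinyl receptor Cysltr1, at 0.83. Lta4h, with a log2 fold change of -0.16, did not pass (edgeR adjusted p = 0.0613). Alox5, the lipoxygenase that begins leukotriene synthesis, averaged 18.7 ± 1.80 CPM under 4OHT and 3.23 ± 0.981 CPM under DMSO, a log2 fold change of 2.57 (SE 0.165; edgeR adjusted p = 6.56e-09), and Alox5ap, its activating protein, rose by 1.01 (adjusted p = 0.0303). In the gluconeogenesis list 7 of 9 tested genes fell and 2 rose, with a median of -0.91. Aldoc fell by 2.30 and Tpi1 by 1.39, both enzymes that glycolysis shares (adjusted p = 5.28e-07 and 1.06e-07), and Pck1 had 0 counts in the Ythdc1 set.

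Of the Nav3 relatives Nav2 rose by 0.40 and Nav1 fell by 0.53 (edgeR adjusted p = 8.67e-05 and 1.77e-06). 4 of 12 tested genes of the Dok and Ret list rose and none fell, and Gfra1, a co-receptor of Ret, rose by 1.30 (adjusted p = 9.07e-05). In the list of ITAM receptors, kinases and Nfat genes, 4 of 9 tested genes rose and 1 fell. Zap70 rose by 1.04 and Nfatc2 by 0.89 (adjusted p = 0.0231 and 1.44e-06). The receptor genes tested, Cd79a, Cd79b, Cd3e and Cd247, were not called. 4 of 9 annexins rose and 1 fell, and Anxa9 rose by 0.98 (adjusted p = 0.000968), and 3 of 10 tubulin tyrosine ligase-like genes rose and 1 fell, and Ttll7 rose by 1.13 (adjusted p = 0.0341). None of 5 tested DNase genes passed; Trex1 had a log2 fold change of 0.30 (adjusted p = 0.116).

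The features outside the 10 genes whose profile over the 22 libraries was most like their mean were Ptprv (r = 0.987), Lrrc28 (0.982), 5830418P13Rik (0.981), Gm26973 (0.981) and Eng (0.977), in log2(CPM + 0.5) over 21712 features. The libraries share treatment and scaling, and these values are descriptions. Ptprv averaged 59.2 CPM under 4OHT and 9.09 CPM under DMSO in the Ythdc1 set, 67.8 CPM and 9.55 CPM in Dux-KO cells, and 14.5 CPM in the libraries labelled Mettl3 KO beside 8.89 CPM in WT. Eng, a coreceptor for TGF-beta ligands known from endothelium, averaged 48.0 CPM under 4OHT and 15.4 CPM under DMSO. With a pseudocount of 0.1 CPM, 4 of these 5 remained among the 5 most alike.

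Markers of other cell types were read beside these levels, and their part in the results was not tested. Among all features of the Ythdc1 set, 23.7% were called higher and 21.4% lower. Of 5 tested endothelial markers 3 rose in the Ythdc1 set (Tek, Tie1 and Robo4), and the list summed to 31.6 to 41.5 CPM under 4OHT and 8.94 to 14.1 CPM under DMSO; Emcn had 0 counts, and Cdh5 averaged 0.438 CPM under 4OHT and 0.572 CPM under DMSO. The endothelial list summed to 81.8 to 82.6 CPM under 4OHT and 21.6 to 23.8 CPM under DMSO in Dux-KO cells. Of 7 tested blood markers 2 rose (Itgam and Cd68), with sums of 29.2 to 32.4 CPM under 4OHT and 23.0 to 24.6 CPM under DMSO; Adgre1 and Tyrobp had 0 counts. Of 8 neuronal markers 1 rose (Neurod1) and 3 fell, with sums of 121 to 148 CPM under 4OHT and 151 to 179 CPM under DMSO. 2 of 4 tested muscle markers rose and 2 fell, at 50.8 to 101 CPM under 4OHT and 48.0 to 62.4 CPM under DMSO. None of 2 tested spermatid markers passed, at 0.977 to 1.69 CPM under 4OHT and 1.06 to 2.05 CPM under DMSO, and Tnp1 had 0 counts. Of 6 tested fibroblast markers 1 fell, at 9.67 to 15.8 CPM under 4OHT and 15.8 to 19.8 CPM under DMSO. ESC markers summed to 1197 to 1464 CPM under 4OHT and 1818 to 2071 CPM under DMSO, with 5 of 8 lower and none higher. All 17 tested two-cell entries rose, at 2088 to 3703 CPM under 4OHT and 787 to 1033 CPM under DMSO.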

How the data were processed

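RNA from 22 ESC libraries was analysed. The authors deposited a table of raw counts, 1 row for each gene and repeat family. STAR 2.7, Bowtie2, RSEM, bcl2fastq and mm10 are listed per the submitters' processing notes, which give no order or role; use of strand and of reads with several matches is not stated there. A deposited table of normalized values was not used. Groups follow the titles; in the Dux set other label fields are shifted by 1 sample against them.

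Counts were tested with edgeR 4.0.16 in R 4.3.3 (filterByExpr, TMM, glmQLFit and glmQLFTest; Benjamini-Hochberg over all features; threshold 0.05), separately for the Ythdc1 (8 libraries), Mettl3 (4) and Dux sets (10, as 6 group means), after tests on simulated data. SE is the absolute log2 fold change over the root of F. Alternatives were DESeq2 1.42.0, library totals, no filter, genes only, a replicate block and leaving out libraries. Same-numbered libraries of the Ythdc1 set deviated together (r = 0.331, 0.130, 0.360 and 0.339). Libraries with different numbers were not compared, so these values cannot show whether the numbers pair libraries. The main fits used no pairing. The rule gave 10 genes, all named; neighbours are the nearest protein-coding genes in GENCODE vM21, relatives at most 3 per list by size among those that passed, and likeness the 5 highest r. The genes and lists were chosen with earlier results of these data known.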

Additional observations from a re-analysis of the deposited data

Results flagged for a closer look

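Fbp2 in the 4OHT libraries of the Ythdc1 set was the 1 case of 20 gene and group pairs in which a single library stood far from the others: library 1 had 6.73 CPM and the others 3.08 to 3.23 CPM, so that the gap took up 0.959 of the range, above Dixon's critical value for 4 libraries. Chance flags about 1 in 20 groups. The reason was not tested.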

How the results depend on the processing

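In the Ythdc1 set the log2 fold changes of all 10 genes stayed positive under every alternative run. The genes were chosen for such increases, so this sign was close to fixed and nothing is read from it. The replicate block left 7 genes called in the Mettl3 set and gave 30 relatives higher and 25 lower (29 and 22 without it). A crossed block, added after the data were seen, swapped the replicate numbers of the Dux-KO 4OHT libraries. With it none of the 10 genes was called for Dux-KO against Dux-Het under 4OHT. Under the replicate block the Ltb4r1 difference of 4OHT effects was 0.094.

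Without a filter, features called were 4319 (Dux-Het 4OHT), 4701 (Dux-KO 4OHT), 272 (Dux-KO against Dux-Het under 4OHT), 124 (under DMSO) and 28 (difference of effects), against 2738, 2890, 81, 10 and 0; 1 gene, Nav3, was then called lower in the first and 1, Nav3, in the last of these genotype comparisons. DESeq2 called 17 under DMSO and 2 for the difference. The cause was not tested.

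Leaving out 1 library at a time, called features ran from 1254 to 2957 (Dux-Het 4OHT), 423 to 3645 (Dux-KO 4OHT), 30 to 97 (Dux-KO against Dux-Het, 4OHT), 0 to 15 (DMSO), 0 to 1 (difference) and 351 to 9716 (Mettl3); genes called ran from 0 to 1 lower under 4OHT and 1 to 7 higher in the Mettl3 set. The spread then rests on fewer libraries, and a lone library is assumed to vary like the others. Log2 fold changes that crossed 0 ran from -0.45 to 3.36 for Nav3 in Dux-Het and from -1.05 to 0.087 in Dux-KO cells. For Dux-KO against Dux-Het under 4OHT they ran from -0.56 to 0.14 for Adcy10, -0.84 to 0.24 for Ltb4r1, -1.19 to 0.035 for Dok6 and -0.10 to 0.025 for Nfam1. Under DMSO they ran from -1.16 to 0.40 for Nav3, -0.17 to 0.82 for Fbp2, -0.40 to 0.40 for Adcy4 and -0.056 to 0.75 for Nfam1. The difference of effects ran from -3.72 to 0.047 for Nav3, -0.41 to 0.26 for Adcy10, -0.67 to 0.13 for Adcy4, -0.46 to 0.60 for Ltb4r1, -0.020 to 2.11 for Dok6, -0.79 to 0.013 for Nfam1, -0.52 to 0.22 for Anxa8 and -0.23 to 0.15 for Ttll6. Pairs of libraries per group limit the Dux and Mettl3 comparisons, and counts under 10 in DMSO or WT libraries limit the folds.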
